A study of Mus musculus with 3 samples.

Results

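Fibronectin, the thrombospondins and SPARC are secreted proteins of the extracellular matrix through which fibroblasts shape how cells attach and how collagen is laid down. The genes described here are Fn1, Thbs1, Thbs2, Thbs3 and Sparc, taken by gene symbol, and all 5 were measured among the 56748 genes of the count table and passed the filter of at least 1 CPM (counts per 1000000 counts, by effective library size) in at least 1 library, which left 13712 genes. RNA sequencing covered visceral fat fibroblasts of wild-type (WT) mice fed a high-fat diet, 1 library for each of 3 conditions. They were isolated from the stromal vascular fraction, the part of fat tissue without mature adipocytes, after magnetic sorting had removed cells that carry CD45, CD31 or Ter119. They were given recombinant mouse oncostatin M (Osm) at 3 ng/mL for 24 h, recombinant human TGF-beta1, a transforming growth factor, at 3 ng/mL for 24 h, or vehicle (Veh, treatment label Control), for which no time is stated. Every library therefore shares the genotype, the diet and the sort. The sources used here do not give the strain, age or number of the mice, or whether cells were pooled.

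Fibronectin is assembled by cells into fibrils through integrins, and other matrix proteins, collagens and latent TGF-beta complexes are deposited on that scaffold. Thrombospondins are calcium-binding glycoproteins that bind matrix, growth factors and cell receptors. Thrombospondin-1 and thrombospondin-2, which both bind the receptors Cd36 and Cd47, form one subgroup, and thrombospondin-3, thrombospondin-4 and Comp form the other. Thrombospondin-1 can activate latent TGF-beta, an activity that thrombospondin-2 lacks, and mice without thrombospondin-2 have abnormal collagen fibrils. SPARC binds collagen and takes part in fibril assembly, and in fat it restrains the formation of adipocytes. Fn1 and Thbs1 are widely used as TGF-beta target genes in fibroblasts. Osm, a relative of interleukin 6, acts through the shared receptor chain gp130 and the transcription factor Stat3.

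The Osm, TGF-beta1 and vehicle libraries held 17319872, 18533741 and 18336068 counts. With 1 library per condition, the spread between cultures is unknown, no p-value is given, and each interval in brackets is an exact 95% interval for counting error between or within single libraries. The protocol names no molecular identifiers, so repeat reads of a molecule may make even the counting error larger than stated. Genes that usually answer each ligand were read first. Serpina3n, an acute-phase protease inhibitor, had 397 CPM with Osm and 193 CPM with vehicle. Acta2, the smooth muscle actin of myofibroblasts, had 1327 CPM with TGF-beta1 and 446 CPM with vehicle, and Tagln, another smooth muscle gene, had 909 CPM with TGF-beta1 and 318 CPM with vehicle. All 8 fibroblast markers reached 1 CPM (Pdgfra, Pdgfrb, Col1a1, Col1a2, Dcn, Lum, Dpt and Thy1), with summed levels of 12849, 16993 and 13764 CPM in the Osm, TGF-beta1 and vehicle libraries. The higher sum with TGF-beta1 came from the collagen genes Col1a1, with 8039 CPM against 4285 CPM with vehicle, and Col1a2, with 5720.4 CPM against 4302 CPM with vehicle. The other 6 markers lay below vehicle, and the median log2 ratio of the 8 was -0.48. Dcn, with 824 CPM with TGF-beta1 and 1984 CPM with vehicle, was 2.41-fold lower, Dpt 1.84-fold, Pdgfra 1.62-fold and Lum 1.59-fold lower. In the order Osm, TGF-beta1 and vehicle, leukocyte markers (3 of 7 at 1 CPM or more) summed to 12.7, 7.43 and 15.8 CPM, and endothelial markers (3 of 6) to 45.6, 37.9 and 56.6 CPM. Mesothelial markers (5 of 6) summed to 40.5, 49.4 and 42.0 CPM, and megakaryocyte and platelet markers (1 of 4) to 8.01, 5.64 and 4.73 CPM. No erythroid, adipocyte or Schwann cell marker reached 1 CPM. Within these lists Ptprc, Pecam1, Msln, Rgs5 and Pf4 were each under 1 CPM. Cd3e, Ppbp, Plin1, Sox10 and all 6 erythroid genes had no count. Other genes of the lists stood higher. In the same library order, Wt1 (mesothelial) had 36.1, 43.4 and 37.1 CPM and Tek (endothelial) 38.9, 34.4 and 48.5 CPM. Cd68 (leukocyte) had 6.68, 3.69 and 8.91 CPM, and Itga2b (megakaryocyte and platelet) 8.01, 5.48 and 4.67 CPM. Des (mural) had 20.3, 29.2 and 22.6 CPM. Mural markers, with 6 of 8 genes at 1 CPM or more, summed to 58.9 CPM with Osm, 124 CPM with TGF-beta1 and 60.5 CPM with vehicle, and Cspg4 alone had 74.9 CPM in the TGF-beta1 library, against 8.53 CPM with vehicle. The part of these marker differences in the results that follow was not tested. In bulk samples of this kind, fewer cells of a type and less RNA per cell cannot be told apart.

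Fn1, Sparc, Thbs1 and Thbs2 were among the most abundant messages of these fibroblasts, and Thbs3 was far rarer, with a Thbs2 level per length of 113 times that of Thbs3 with Osm, 88.9 times with TGF-beta1 and 117 times with vehicle. Fn1 (ENSMUSG00000026193), on mm39 chromosome 1 from 71624679 to 71692359 on the minus strand, held more counts than any other gene in all 3 libraries. It took 1.68% of all counts with Osm, 1.24% with TGF-beta1 and 1.67% with vehicle. Levels of different genes are set side by side only per length, in the deposited FPKM, which divides counts by gene length and library size. In that unit Fn1 stood at 1429.6 with Osm (1424 to 1435), 1070.2 with TGF-beta1 (1066 to 1075) and 1427 with vehicle (1422 to 1432). The TGF-beta1 library was the low one, and the Osm and vehicle intervals overlapped. Among protein-coding genes Fn1 ranked 7 with Osm, 14 with TGF-beta1 and 6 with vehicle by this level.

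Sparc (ENSMUSG00000018593; chromosome 11, 55285326 to 55314009, minus strand) had 989 FPKM with Osm, 1459 FPKM with TGF-beta1 and 1049.5 FPKM with vehicle, which made it rank 13 with Osm, 9 with TGF-beta1 and 11 with vehicle. Thbs2 (ENSMUSG00000023885; chromosome 17, 14885762 to 14914497, minus strand) had 484 FPKM with Osm, 261 FPKM with TGF-beta1 and 483 FPKM with vehicle. Thbs1 (ENSMUSG00000040152; chromosome 2, 117942357 to 117957614, plus strand) had 239.8 FPKM with Osm, 337 FPKM with TGF-beta1 and 259 FPKM with vehicle. Sparc and Thbs1 were highest in the TGF-beta1 library, whereas Thbs2 was lowest there and alike in the other libraries. Thbs3 (ENSMUSG00000028047; chromosome 3, 89122487 to 89134144, plus strand) had 4.30 FPKM with Osm (3.87 to 4.76), 2.94 FPKM with TGF-beta1 (2.60 to 3.32) and 4.12 FPKM with vehicle (3.70 to 4.56). Its TGF-beta1 interval lay below the others, and those of Osm and vehicle overlapped. Thbs3 ranked 7018, 8181 and 7203 in the Osm, TGF-beta1 and vehicle libraries.

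The order of the levels differed between libraries. In the Osm and vehicle libraries it ran Fn1, Sparc, Thbs2, Thbs1 and Thbs3 from high to low. In the TGF-beta1 library it ran Sparc, Fn1, Thbs1, Thbs2 and Thbs3, so that both neighbouring pairs at the top and in the middle had changed places. In no library did the counting intervals of neighbours in this order overlap. Together the 5 genes made up 2.55% of counts with Osm, 2.18% with TGF-beta1 and 2.57% with vehicle.

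**Figure D1:**
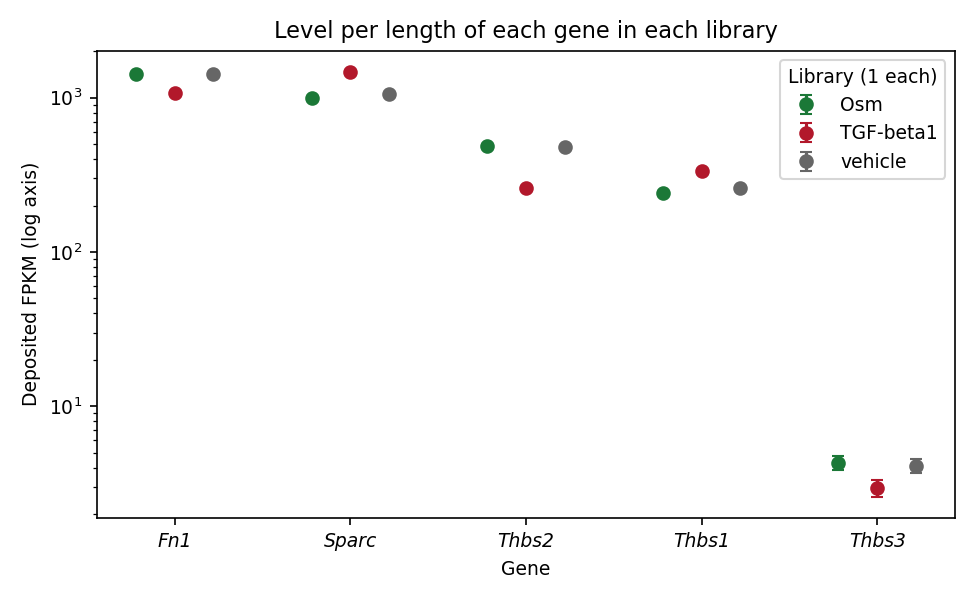
Levels of the 5 genes in each library, in FPKM on a log axis, with 1 point per library and 95% counting intervals. Sparc and Thbs1 sit highest with TGF-beta1, Fn1, Thbs2 and Thbs3 sit lowest there, and the Osm and vehicle points lie close together for every gene.

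Promoter windows are shown as a description of sequence, and any part of their letters in these levels was not tested. RefSeq holds windows of 250 bases before and 50 after the start for 3 of the 5 genes on GRCm38.p6, an earlier build than that of the count table: Sparc at chr11:55420031-55420330 (minus strand), Thbs2 at chr17:14694213-14694512 (minus strand) and Thbs3 at chr3:89214930-89215229 (plus strand). Fn1 and Thbs1 had no entry. Capitals mark GTCTG, the reverse complement of the Smad box CAGAC, to which the Smad proteins of TGF-beta signalling can bind.
Sparc: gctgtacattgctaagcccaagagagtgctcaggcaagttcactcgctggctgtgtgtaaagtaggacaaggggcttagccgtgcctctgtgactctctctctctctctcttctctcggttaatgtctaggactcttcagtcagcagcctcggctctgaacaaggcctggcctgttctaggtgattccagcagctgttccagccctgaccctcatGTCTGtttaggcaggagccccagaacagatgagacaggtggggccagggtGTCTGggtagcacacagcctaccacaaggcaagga
Thbs2: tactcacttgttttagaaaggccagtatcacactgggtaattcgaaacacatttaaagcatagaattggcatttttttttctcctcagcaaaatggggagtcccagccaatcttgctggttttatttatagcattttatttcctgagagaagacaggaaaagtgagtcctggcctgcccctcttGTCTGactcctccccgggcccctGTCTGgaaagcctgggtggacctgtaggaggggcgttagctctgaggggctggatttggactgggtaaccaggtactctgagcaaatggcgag
Thbs3: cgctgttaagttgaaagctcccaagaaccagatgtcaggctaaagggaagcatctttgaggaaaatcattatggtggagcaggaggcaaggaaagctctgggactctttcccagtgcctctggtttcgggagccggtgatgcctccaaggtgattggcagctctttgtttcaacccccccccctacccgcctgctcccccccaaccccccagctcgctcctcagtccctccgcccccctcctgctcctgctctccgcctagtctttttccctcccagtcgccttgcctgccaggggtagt
Sparc held the box at positions -35 and 16 relative to the RefSeq start and Thbs2 at -66 and -43, and no match to these letters was found in the Thbs3 window. CAGAC on either strand occurs in 49.6% of 32851 promoter windows, so its presence is ordinary. The longer palindrome GTCTAGAC (0.213% of windows), the AP-1 motif TGANTCA (7.81%) and the Stat motif TTCNNNGAA (8.30%) were searched on both strands and found in none of the 3 windows. These motifs do not overlap in letters except that GTCTAGAC contains part of the Smad box. For Sparc the outermost annotated start in GENCODE lies 3103 bases upstream of the RefSeq start, so the window shown covers 1 of its possible starts.

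TGF-beta1 over vehicle asked what the classical matrix-inducing ligand did to these genes. Sparc and Thbs1 were higher with TGF-beta1, and Fn1, Thbs2 and Thbs3 were lower, each by less than 2-fold. Fn1, the scaffold protein, had 230069 counts or 12482 CPM with TGF-beta1 and 306727 counts or 16669 CPM with vehicle. That is 1.34-fold lower (1.33 to 1.34), a log2 ratio of -0.42. The direction is the reverse of the usual description of Fn1 as a gene that TGF-beta raises.

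Among the thrombospondins, Thbs1, whose protein can activate latent TGF-beta, had 37599 counts or 2039.8 CPM with TGF-beta1 and 28880 counts or 1569 CPM with vehicle, 1.30-fold higher (1.28 to 1.32; log2 0.38). Thbs2 had 33689 counts or 1828 CPM with TGF-beta1 and 62166 counts or 3378 CPM with vehicle, 1.85-fold lower (1.82 to 1.87; log2 -0.89). Thbs2 thus came nearest to the 2-fold line of the 5 genes. Thbs3, whose protein belongs to the other subgroup, had 261 counts or 14.2 CPM with TGF-beta1 and 365 counts or 19.8 CPM with vehicle, 1.40-fold lower (1.19 to 1.65; log2 -0.49). Sparc, the collagen-binding member, had 101686 counts or 5517 CPM with TGF-beta1 and 73110 counts or 3973 CPM with vehicle, 1.39-fold higher (1.38 to 1.40; log2 0.47). Sparc and Thbs2 thus lay on opposite sides of vehicle. Whether the Smad box in their promoter windows has any part in this was not tested.

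Read against all genes, these differences were moderate. A gene was counted as higher or lower where it differed at least 2-fold, as a log2 ratio of 1 or more in size computed with 0.5 added as prior count, and where its counting interval left out a ratio of 1. By that rule 0 of 5 genes were higher and 0 of 5 lower with TGF-beta1, against 2.27% (311 genes) and 4.79% (657 genes) of the 13712 tested. At a smaller step of 1.2-fold, Sparc and Thbs1 were higher and Fn1, Thbs2 and Thbs3 lower, where 18.0% of all tested genes were higher and 17.7% lower. The median log2 ratio was -0.42 over the 5 genes and 0.01 over all tested genes. Low genes scatter more, so the 4124 genes with a mean of at least 50 CPM make a closer ground for the abundant members. Of these, counting both directions, 3.90% lay as far from 0 as Thbs2 or farther, 14.4% as far as Sparc, 18.4% as far as Fn1 and 21.3% as far as Thbs1.

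**Figure D2:**
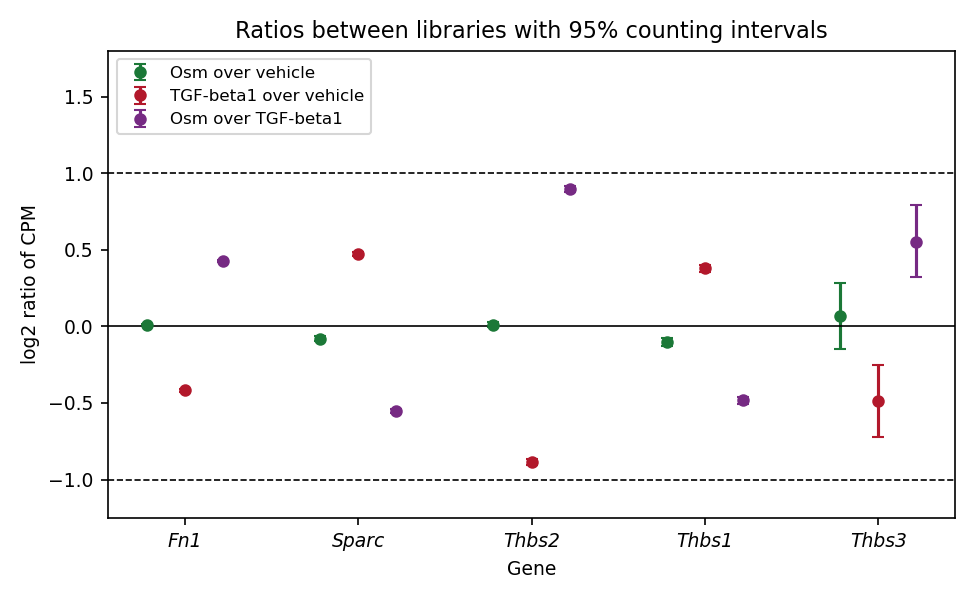
Log2 ratios of CPM of the 5 genes in the 3 comparisons, with 95% counting intervals; dashed lines mark 2-fold. In Osm over vehicle every gene lies near 0, and in TGF-beta1 over vehicle Thbs2 lies lowest at -0.89 and Sparc highest at 0.47.

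With Osm, the largest difference from vehicle among the 5 genes was 1.07-fold, for Thbs1. Fn1 had 290935 counts or 16765 CPM with Osm, against 16669 CPM with vehicle, a ratio of 1.006 (1.0007 to 1.0109). Thbs2 had 59034 counts or 3402 CPM with Osm, against 3378 CPM with vehicle, a ratio of 1.01 (0.996 to 1.02). Thbs3 had 361 counts or 20.8 CPM with Osm, against 19.8 CPM with vehicle, a ratio of 1.05 (0.904 to 1.22). The intervals of Thbs2 and Thbs3 included 1. Thbs1 had 25358 counts or 1461 CPM with Osm, against 1569 CPM with vehicle, 1.07-fold lower (1.06 to 1.09; log2 -0.10). Sparc had 65251 counts or 3760.1 CPM with Osm, against 3973 CPM with vehicle, 1.06-fold lower (1.05 to 1.07; log2 -0.08). The intervals of Fn1, Thbs1 and Sparc exclude 1, which at such depth separates these libraries but not the conditions. That of Fn1 does so narrowly and depends on scaling, with a log2 ratio of 0.0083 here and 0.0022 under DESeq2 size factors.

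By the 2-fold rule 0 of 5 genes were higher or lower with Osm, against 0.948% (130 genes) higher and 0.649% (89 genes) lower of all tested. None passed 1.2-fold either, where 4.92% of tested genes were higher and 4.67% lower. Most abundant genes were likewise close to vehicle, since 97.0% of the genes at 50 CPM or more lay within 1.2-fold. The median log2 ratio was 0.01 over the 5 genes and 0.00 over all tested genes. Socs3, the feedback inhibitor that Stat3 induces, had 87.1 CPM with Osm and 54.3 CPM with vehicle in these libraries, 1.60-fold higher (1.48 to 1.74).

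Osm over TGF-beta1 set the 2 ligands against each other. Fn1 was 1.34-fold higher with Osm (1.34 to 1.35; log2 0.43), Thbs2 1.86-fold higher (1.84 to 1.89; log2 0.90) and Thbs3 1.47-fold higher (1.25 to 1.73; log2 0.55). Thbs1 was 1.40-fold lower with Osm (1.37 to 1.42; log2 -0.48) and Sparc 1.47-fold lower (1.45 to 1.48; log2 -0.55). No gene of the 5 passed 2-fold in either direction, against 5.07% of tested genes higher and 2.42% lower. At 1.2-fold Fn1, Thbs2 and Thbs3 were higher and Thbs1 and Sparc lower, where 18.5% of tested genes were higher and 17.4% lower. The comparisons share libraries pairwise, so their values are not independent of one another.

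**Figure D3:**
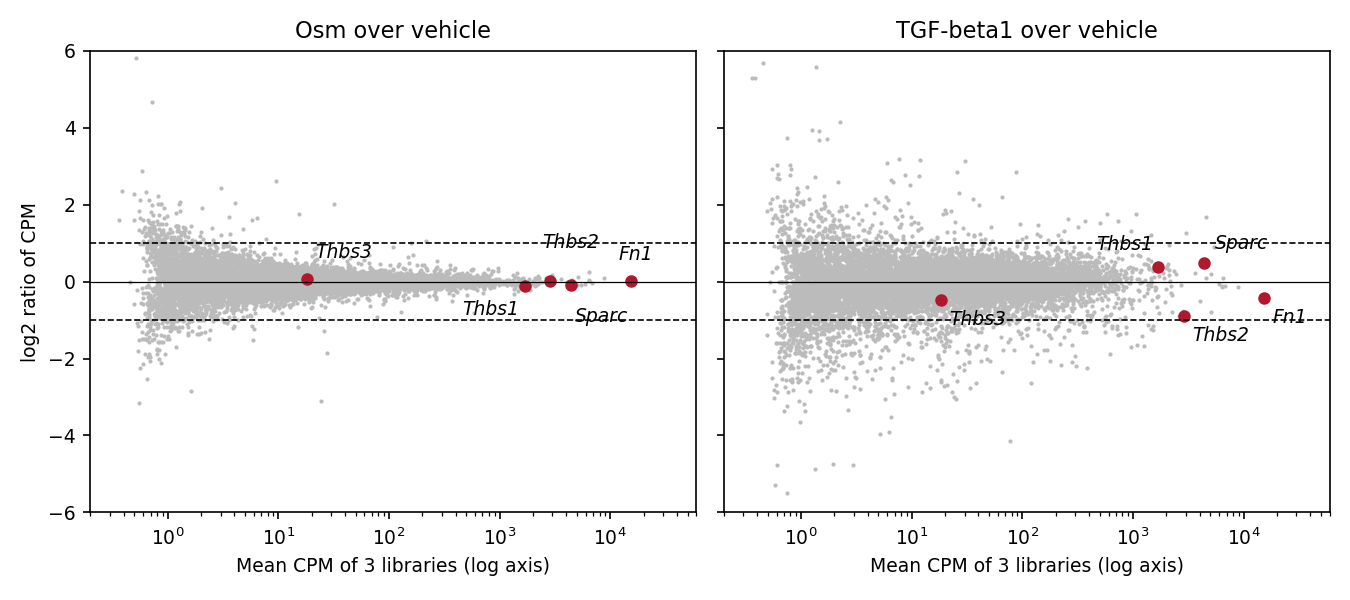
Log2 ratio of CPM against mean CPM on a log axis for the 13712 genes tested (grey) and the 5 members (red), Osm over vehicle on the left and TGF-beta1 over vehicle on the right; dashed lines mark 2-fold. Fn1 is the rightmost point of all, and the cloud of abundant genes is narrower with Osm than with TGF-beta1, in which Thbs2 lies just inside the lower line.

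The clearest pattern within the thrombospondins was the exchange between Thbs1 and Thbs2. Per length, Thbs1 stood at 0.495 of Thbs2 with Osm (0.488 to 0.503), at 1.29 times Thbs2 with TGF-beta1 (1.27 to 1.31) and at 0.536 of Thbs2 with vehicle (0.528 to 0.543). Thbs1 thus exceeded Thbs2 in the TGF-beta1 library, and Thbs2 exceeded Thbs1 in the others. Of the summed FPKM of Thbs1, Thbs2, Thbs3, Thbs4 and Comp, Thbs1 made up 32.9% with Osm, 55.8% with TGF-beta1 and 34.7% with vehicle. Thbs2 made up 66.5% with Osm, 43.4% with TGF-beta1 and 64.7% with vehicle. The sum itself was 728 FPKM with Osm, 603 FPKM with TGF-beta1 and 746 FPKM with vehicle, since the lower Thbs2 level outweighed the higher Thbs1 level.

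Thbs3 held under 1% of that sum in every library. Thbs4, another member of its subgroup, had 4 counts with Osm, 84 counts with TGF-beta1 and 6 counts with vehicle. It was the member of the family past 2-fold, 13.0-fold higher with TGF-beta1 than with vehicle (6.16 to 39.2), yet in the TGF-beta1 library it stood at 1.39 FPKM beside 2.94 FPKM for Thbs3. Comp, known from cartilage, had 13 counts with Osm, 16 counts with TGF-beta1 and 6 counts with vehicle and did not reach 1 CPM. Thbs4 and Comp fall outside the rule for named genes and were named after their values were seen.

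**Figure D4:**
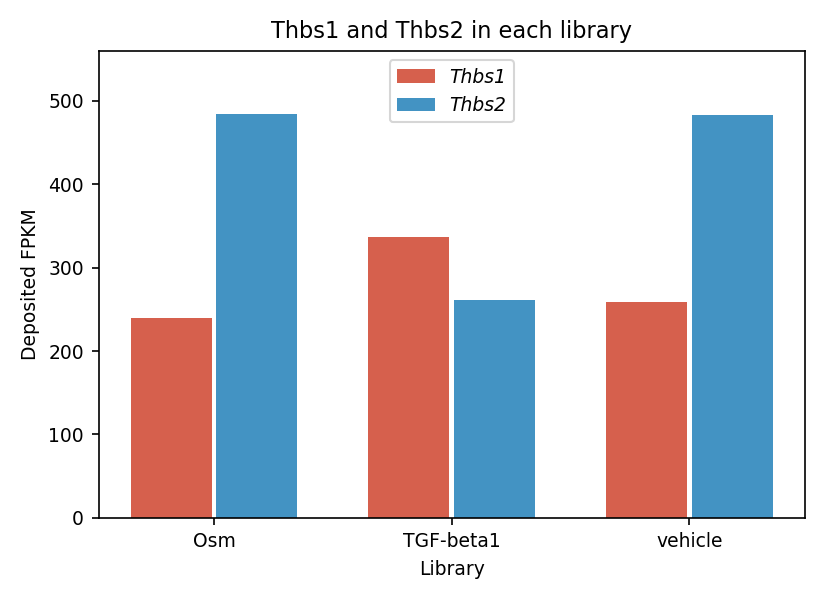
Deposited FPKM of Thbs1 (red bars) and Thbs2 (blue bars) in each library, 1 library per pair of bars and no error bars. The Thbs1 bar is the taller with TGF-beta1, at 337 against 261 FPKM, and the Thbs2 bar is the taller with Osm, at 484 against 239.8 FPKM, and with vehicle, at 483 against 259 FPKM.

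Sparc and Fn1 changed places in the same way. Sparc per length stood at 0.692 of Fn1 with Osm, at 1.36 times Fn1 with TGF-beta1 (1.35 to 1.37) and at 0.735 of Fn1 with vehicle. Sparc and Thbs1, the pair that was higher with TGF-beta1, kept nearly constant proportions, with Sparc at 4.13, 4.34 and 4.06 times Thbs1 in the Osm, TGF-beta1 and vehicle libraries. Sparc over Thbs2 was 2.04 with Osm, 5.58 with TGF-beta1 and 2.17 with vehicle.

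Other genes are annotated over 3 of the 5 on the opposite strand, and the protocol does not say whether the library kept strand information. Mtx1, a mitochondrial import gene, covers all 11658 bases of the Thbs3 span and had 19.5 CPM with Osm, 25.6 CPM with TGF-beta1 and 17.9 CPM with vehicle. Its log2 ratio of TGF-beta1 over vehicle was 0.51, against -0.49 for Thbs3, and 3.54% of the 50-base stretches of the Thbs3 transcripts also occur in Mtx1. The noncoding Apol7d shares 364 bases with Fn1 and had 295 counts with TGF-beta1 and 566 counts with vehicle, few beside those of Fn1. Gm29233, a noncoding gene that shares 597 bases with Thbs1, had 4.67 CPM with TGF-beta1 and 4.35 CPM with vehicle. Stretches shared with other genes on the same strand made up 0.589% of Fn1 and 0.601% of Sparc, and 0 of Thbs1, Thbs2 and Thbs3. Stretches shared on the opposite strand made up 2.415% of Fn1, 1.893% of Thbs1, 3.54% of Thbs3 and 0.496% of Sparc, and 0 of Thbs2. Those would also count if strand information was not kept.

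The related genes were grouped in lists by role, and each list is described by how many of its tested genes passed 2-fold in TGF-beta1 over vehicle. Of all tested genes, 2.27% were higher and 4.79% lower by that rule, and their median log2 ratio was 0.01. The lists were chosen with earlier results of these data known. In the SPARC family, with 7 tested genes, 0 were higher and 1 was lower, and the median log2 ratio was 0.07. Sparcl1, the closest relative of Sparc, had 70.6 CPM with TGF-beta1 and 244 CPM with vehicle, 3.45-fold lower (3.24 to 3.67), on the other side of 0 from Sparc. Fstl1, a secreted glycoprotein of the same family, had 2460.0 CPM with TGF-beta1 and 2011 CPM with vehicle.

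Among 21 other matricellular and fibronectin-associated matrix genes, 3 were higher and 7 lower, with a median of -0.13, or 0.0011 among genes reaching 10 CPM. Tenascin-C (Tnc), a matrix protein of wounds, had 459 CPM with TGF-beta1 and 149 CPM with vehicle, 3.07-fold higher (2.94 to 3.21). Periostin (Postn), which binds collagen and fibronectin, had 2375 CPM with TGF-beta1 and 1035 CPM with vehicle, and Ccn4, a matricellular protein of the CCN family, had 337 CPM with TGF-beta1 and 147 CPM with vehicle. The lower genes were Tnxb, Ccn3, Fbln1, Fbln7, Vtn, Tgfbi and Matn2. Tnxb, a tenascin of loose connective tissue, had 511 CPM with TGF-beta1 and 1630.1 CPM with vehicle, 3.19-fold lower (3.12 to 3.26). Fbln1, a fibulin that binds fibronectin, had 62.1 CPM with TGF-beta1 and 214 CPM with vehicle, and Ccn3 had 32.6 CPM with TGF-beta1 and 112 CPM with vehicle. Fbln2, with the highest CPM of this list before any division by gene length, had 5958 CPM with TGF-beta1 and 6515 CPM with vehicle. The list thus split in both directions at 2-fold, where 2.27% of all tested genes were higher and 4.79% lower. Of the 5 genes, 0 passed 2-fold in either direction, and their split was seen at the smaller step of 1.2-fold.

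Of 26 fibronectin receptor and fibril assembly genes, 17 lay above 0 and 9 below, and 1 was past 2-fold on each side. By the same rule 2.27% of all tested genes were higher and 4.79% lower. The median of the 26 was 0.24, against 0.01 over all tested genes. Itga3, an integrin chain, had 10.5 CPM with TGF-beta1 and 5.22 CPM with vehicle, 2.00-fold higher (1.56 to 2.59) and at the very edge of the rule. Sdc4, a syndecan that binds fibronectin beside integrins, had 49.2 CPM with TGF-beta1 and 100.4 CPM with vehicle, 2.04-fold lower (1.88 to 2.21). Itgb1, the beta chain of the main fibronectin receptor, had 1544 CPM with TGF-beta1 and 1128 CPM with vehicle. Its partner Itga5, named after its value was seen, had 649.8 CPM with TGF-beta1 and 388 CPM with vehicle, 1.67-fold higher (1.63 to 1.72). Both receptor chains were therefore higher in the library in which Fn1 was lower. Itgb5, a chain of a vitronectin receptor, had 682 CPM with TGF-beta1 and 751 CPM with vehicle.

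Of 17 receptors and binding partners of thrombospondins and SPARC, 1 was higher and 1 lower, both under 5 CPM (Stab1 and Cd36, named after their values were seen). Of all tested genes, 2.27% were higher and 4.79% lower, which holds for the next list too. The median of the 17 was 0.03, and -0.14 with no filter on low counts, so it had no stable side of 0. Lrp1, the endocytic receptor that clears thrombospondins, had 8105 CPM with TGF-beta1 and 8937 CPM with vehicle. Hspg2, the basement membrane proteoglycan perlecan, had 2506 CPM with TGF-beta1 and 1812 CPM with vehicle. Of 16 genes of latent TGF-beta storage and activation, 1 was higher and 1 lower, with a median of -0.05, or 0.0055 among genes reaching 10 CPM. Ltbp2, a fibrillin-binding member of the latent TGF-beta binding proteins, had 1998 CPM with TGF-beta1 and 591 CPM with vehicle, 3.38-fold higher (3.31 to 3.46). The other genes of that family, named after their values were seen, were not higher in this way. Ltbp1 was 1.43-fold lower (1.34 to 1.53) and Ltbp3 1.09-fold lower (1.06 to 1.12), and Ltbp4 had 123 CPM in both libraries. The lower gene was Fbn2, under 5 CPM. Fbn1, the main fibrillin, had 5581 CPM with TGF-beta1 and 4907 CPM with vehicle.

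Proteases that can cut fibronectin, thrombospondins or SPARC leaned lower as a list. Of 16 tested, 13 lay below 0 and 3 above, and the median was -0.73, against 0.01 over all tested genes. Past 2-fold, 3 were lower and 1 higher, against 4.79% and 2.27% of all tested genes. This list too was chosen with earlier results of these data known. Plau, the urokinase that activates plasminogen, had 93.3 CPM with TGF-beta1 and 429.6 CPM with vehicle, 4.61-fold lower (4.37 to 4.86). Mmp3, stromelysin, had 354 CPM with TGF-beta1 and 1149 CPM with vehicle, 3.25-fold lower (3.16 to 3.34). Adamts7, known to cut Comp, had 35.3 CPM with TGF-beta1 and 74.1 CPM with vehicle. Ctsb, a lysosomal cathepsin, had 1617 CPM with TGF-beta1 and 3000.2 CPM with vehicle, and Mmp2, a gelatinase, had 1168 CPM with TGF-beta1 and 2058 CPM with vehicle. The higher gene, Mmp13, had 58 counts with TGF-beta1 and 22 counts with vehicle.

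With Osm over vehicle, these lists held 1 gene past 2-fold, Fbn2, at 1.33 CPM with Osm and 2.77 CPM with vehicle, and their medians lay between -0.12 and 0.08. Of all tested genes, 0.948% were higher and 0.649% lower in that comparison, and 5.07% higher and 2.42% lower in Osm over TGF-beta1. In Osm over TGF-beta1 the matricellular list had 6 higher and 5 lower genes with a median of 0.18, the protease list 3 higher and 1 lower with a median of 0.65, and the receptor and assembly list 2 higher and 0 lower with a median of -0.26. The 2 higher receptor and assembly genes were Itga8 and Sdc4, Itga8 being named after its value was seen. The SPARC family and the latent TGF-beta list each had 1 higher gene, Sparcl1 and Fbn2, and the thrombospondin family and the latent TGF-beta list each had 1 lower gene, Thbs4 and Ltbp2. No receptor or binding partner of thrombospondins and SPARC passed 2-fold between the ligands.

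**Figure D5:**
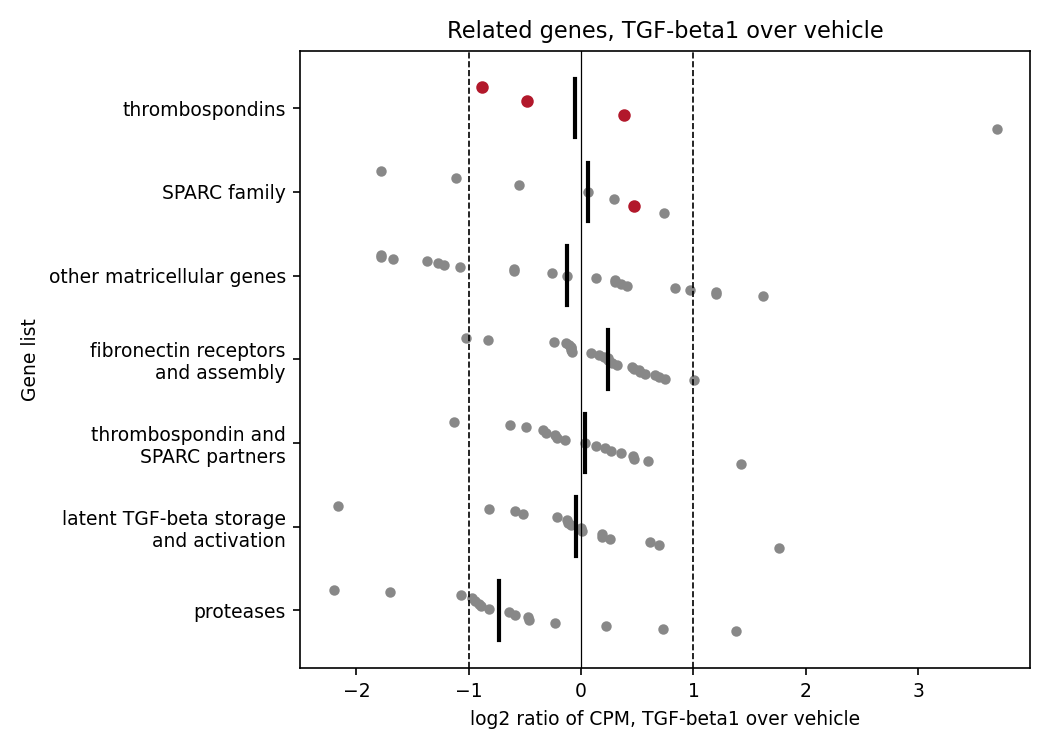
Log2 ratio of CPM, TGF-beta1 over vehicle, for every tested gene of the 7 related lists (1 point per gene, spread vertically for legibility), with Thbs1, Thbs2, Thbs3 and Sparc in red, the median of each list as a black bar and dashed lines at 2-fold. The protease list has the lowest median, at -0.73, the matricellular list spreads past 2-fold on both sides, and Thbs4 is the point farthest to the right; 1 gene of the SPARC family lies past the lower line with an interval that includes a ratio of 1.

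The genes whose pair of log2 ratios over vehicle lay nearest to each member were taken from 4085 protein-coding genes with a mean of at least 50 CPM, with likeness measured as the distance in both ratios over 3 libraries. Nearest to Fn1 were Galk2, Bcl2l1 and Hp1bp3, at distances of 0.0085 to 0.020 log2. Nearest to Thbs1 were Mast4, Myl6 and Tufm, and nearest to Thbs3 were Jak1, Ifitm3 and Glb1. Nearest to Thbs2 were Lgals3bp, Ctsk and Gpx3, of which Ctsk, cathepsin K, is also in the protease list and had 263 CPM with TGF-beta1 and 494 CPM with vehicle. Nearest to Sparc were Taf15, Kif5b and Srprb. With so few libraries many genes lie this close to any point, and no likeness of role is implied.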

How the data were processed

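Poly-A-selected RNA from 3 fibroblast cultures was sequenced, 1 library per condition, per the labels' protocols, which do not say whether strand information was kept. Groups were taken from sample titles and treatment labels. The authors deposited whole-number read counts per gene and FPKM values with gene lengths. The submitters' processing notes name CASAVA, HISAT, HISAT2, TopHat2 and the build mm39; the sources used here name no read counter or annotation. The deposited FPKM values equal counts divided by gene length and by a library size built on DESeq2 size factors.

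CPM values were computed from the counts with edgeR 4.0.16 and its TMM scaling (R 4.3.3; 1.00 with Osm, 0.995 with TGF-beta1 and 1.00 with vehicle). Log2 ratios used a prior count of 0.5. Intervals of ratios were exact conditional binomial (Clopper-Pearson), and those of FPKM levels exact Poisson limits of a single count, all at 95%. They cover counting error only. A count of 0 allows up to 3 counts, which is 0.173, 0.163 and 0.163 CPM with Osm, TGF-beta1 and vehicle. Code in Python 3.11.15 was tested on simulated data. The alternatives were DESeq2 1.42.0 size factors, count totals, upper-quartile factors, the deposited FPKM, a prior of 2 and other low-count filters.

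The 5 genes, the lists and the rule for named genes were chosen with earlier results of these data known. The rule took all 5 members, 3 nearest genes per member and overlapping genes. From the lists it took genes past 2-fold over vehicle with at least 5 CPM (up to 4 per list and comparison, largest first). It also took the 2 genes per list with the highest mean CPM. The motif CAGAC was added later. Shared stretches were read from GENCODE M21 transcripts. Protein sequences were not analysed here. Some of what the rule takes is not reported here.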

Additional observations from a re-analysis of the deposited data

How the results depend on the processing

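Under 6 alternatives (DESeq2 size factors, count totals, upper-quartile factors, the deposited FPKM, no prior count and a prior of 2), no log2 ratio of Fn1, Thbs1, Thbs2, Thbs3 or Sparc changed sign or passed 2-fold, and the largest move was 0.0186. Of 90 such values, 8 moved beyond their counting error. The alternatives are not independent. The deposited FPKM is built on DESeq2 size factors, and a changed prior hardly moves genes with many counts. TMM and upper-quartile factors were near 1, so only small moves could follow from them. The median over the 5 genes in Osm over TGF-beta1 was 0.4177 under DESeq2 size factors and 0.4177 under the deposited FPKM, 0.4364 under count totals and 0.4415 under upper-quartile factors. In TGF-beta1 over vehicle it was -0.4304 under count totals and -0.4359 under upper-quartile factors. The fibronectin receptor list then had 1 gene past 2-fold under count totals, upper-quartile factors and a prior of 2, since Itga3 sat at the edge.

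The background counts moved with the low-count filter. With no filter, 23539 genes were tested instead of 13712, and Osm over vehicle had 237 genes higher and 231 lower. With a filter at 10 CPM it had 7 and 7, TGF-beta1 over vehicle 93 and 228, and Osm over TGF-beta1 225 and 107. That filter tests fewer genes, and their number is not given here, so its counts carry no share of genes tested. It left 0 genes past 2-fold in the latent TGF-beta list with Osm over vehicle and 0 among binding partners with TGF-beta1. The thrombospondin family then had 0 over vehicle and between ligands. The latent TGF-beta list kept 1 with TGF-beta1 over vehicle and 1 between ligands, and the receptor list 1 between ligands. Of 168 list medians, 18 moved by over 0.05 and 12 changed sign, so medians near 0 give no direction. With no filter, the thrombospondin median was 0.01 with Osm over vehicle, 0.3782 with TGF-beta1 over vehicle and -0.2054 between ligands, and the binding partner median was -0.1409 with TGF-beta1 over vehicle. At 10 CPM, with TGF-beta1 over vehicle, it was -0.0548 for binding partners, 0.0011 for matricellular genes and 0.0055 for the latent TGF-beta list. Between ligands it was then -0.1875 for the SPARC family and -0.1219 for the latent TGF-beta list, and the thrombospondin median with Osm over vehicle was 0.01. The latent TGF-beta median with Osm over vehicle was -0.0002 under DESeq2 size factors and the deposited FPKM. Taking likeness from a mean of 10 CPM, 1 of the 3 named genes was shared for Fn1, 0 for Thbs1, 1 for Thbs2 and 1 for Sparc. No paired analysis was possible because each condition has 1 library. Counting error is widest for Thbs3 among the 5 genes, and the spread between cultures is unknown for all.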
